A study of Mus musculus with 2 samples.

Results

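The Ube2 genes encode ubiquitin-conjugating enzymes (E2s) and were taken as every row of the deposited gene table whose symbol starts with Ube2. This gave 35 of 25791 rows, and 31 of the 35 reached 1 FPKM (fragments per kilobase of transcript, scaled to the fragments of the library) in at least 1 group. The RNA came from mouse ESREs (Extensively Self Renewing Erythroblasts), which are immature erythroid cells able to divide for long periods in culture. Cells matured for 1 day were set against proliferating cells in expansion, both on a C57/bl6 background, and the series title speaks of ESREs from transgenic β-Yac mice. Each group has 1 deposited FPKM value per gene although duplicates are mentioned, so the differences come with no SD and no test. The values are of bulk RNA, in which fewer cells of a type and less RNA per cell cannot be told apart.

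Ubiquitin is attached to proteins by a cascade in which an activating enzyme (E1) charges an E2 with ubiquitin and a ligase (E3) brings the charged E2 to its target. Some E2s carry the ubiquitin-like proteins NEDD8 or ISG15 instead. Red cell precursors use this system to divide and, later, to remove proteins and organelles, and UBE2H and UBE2O are known for high levels in late erythroblasts and reticulocytes.

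Among the E2 genes, Ube2l6 and Ube2c stood at least 2-fold higher after 1 day of maturation, while Ube2d1, Ube2w and Ube2o had the lowest plain ratios. Ube2l6 was at 5.33 FPKM in maturing cells and 0.546 FPKM in expanding cells, a 9.76-fold difference. That fold rests on the lowest value of any expressed member in either group, and with depth unknown its size is uncertain. Ube2c was at 54.2 FPKM in maturing cells and 25.5 FPKM in expanding cells, which made it the most abundant Ube2 row of the maturing cells. Most other members differed little, and Ube2h was at 1.41 FPKM in maturing cells and 1.66 FPKM in expanding cells.

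The upstream sequences of the 4 members with the highest log2 ratios are shown, followed by that of Ube2d1, which had the lowest. Each is the 250 bases before the RefSeq start, 5′ to 3′ on the gene's strand. Capitals mark matches, on either strand, to any of 8 short motifs. These are the GATA cores AGATAA and TGATAA, the CACCC element CCNCACCC, the cell cycle homology region TTTGAA, the CCAAT box, the E2F element GCGGGAA, the interferon-stimulated response element and the NRF1 element.
Ube2l6 (GRCm38.p6 chr2:84798578-84798827, + strand): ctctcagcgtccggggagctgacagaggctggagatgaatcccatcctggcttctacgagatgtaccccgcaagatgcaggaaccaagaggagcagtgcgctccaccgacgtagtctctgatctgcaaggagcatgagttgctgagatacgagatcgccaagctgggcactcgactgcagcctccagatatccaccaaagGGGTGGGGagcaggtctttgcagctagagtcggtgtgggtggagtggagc
Ube2c (GRCm38.p6 chr2:164769679-164769928, + strand): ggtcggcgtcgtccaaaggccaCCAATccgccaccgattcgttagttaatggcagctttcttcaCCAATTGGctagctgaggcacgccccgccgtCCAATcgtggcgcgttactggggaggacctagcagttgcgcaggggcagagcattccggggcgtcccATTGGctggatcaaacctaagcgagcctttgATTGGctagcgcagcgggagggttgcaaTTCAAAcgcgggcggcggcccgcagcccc
Ube2s (GRCm38.p6 chr7:4812341-4812590, - strand): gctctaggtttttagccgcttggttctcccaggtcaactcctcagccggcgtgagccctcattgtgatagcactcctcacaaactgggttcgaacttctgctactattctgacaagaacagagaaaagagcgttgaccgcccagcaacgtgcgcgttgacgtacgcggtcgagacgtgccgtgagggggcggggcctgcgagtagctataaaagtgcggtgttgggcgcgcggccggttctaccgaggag
Ube2t (GRCm38.p6 chr1:134962315-134962564, + strand): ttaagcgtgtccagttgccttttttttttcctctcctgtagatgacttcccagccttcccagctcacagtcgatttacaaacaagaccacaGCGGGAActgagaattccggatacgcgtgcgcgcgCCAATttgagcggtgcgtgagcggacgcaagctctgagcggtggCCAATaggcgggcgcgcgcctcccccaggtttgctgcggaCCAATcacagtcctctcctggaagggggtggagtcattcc
Ube2d1 (GRCm38.p6 chr10:71285263-71285512, - strand): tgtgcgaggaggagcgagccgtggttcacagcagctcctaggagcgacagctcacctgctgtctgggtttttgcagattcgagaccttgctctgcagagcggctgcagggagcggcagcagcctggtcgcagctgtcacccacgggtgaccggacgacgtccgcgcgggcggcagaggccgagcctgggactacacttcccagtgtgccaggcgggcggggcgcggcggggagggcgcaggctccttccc

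The Ube2c window held a match to the cell cycle homology region 24 to 29 bases before the start and 6 matches to the CCAAT box, a pair of which overlap on opposite strands. In the Ube2t window there were 3 CCAAT matches and 1 match to the E2F element. The Ube2l6 window held 1 CACCC match, 43 to 50 bases before the start, and no match to the other motifs, and the Ube2s and Ube2d1 windows had no match to any of the 8. A match is a description of letters and not a binding site. RefSeq windows of the same length were found for 27 of the 35 Ube2 genes, 24 of them expressed. Of the 24, 3 held the cell cycle homology region in at least 1 window, against 13.1% of 5758 expressed genes with a window. The E2F element was found in 7 of 24 (8.87% of expressed genes), the CCAAT box in 6 of 24 (42.2%), the CACCC element in 5 of 24 (19.7%) and the NRF1 element in 3 of 24 (11.2%). AGATAA was found in 1 of 24 (7.12%), upstream of Ube2h, whereas TGATAA (4.67%) and the interferon element (3.11%) were found in none. Among all 32851 promoter windows, expressed or not, TTTGAA stood in 16.0%, CCAAT in 33.8%, GCGGGAA in 3.82%, CCNCACCC in 14.9%, the NRF1 element in 3.74%, AGATAA in 9.99%, TGATAA in 7.94% and the interferon element in 2.98%.

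Taken over the 31 expressed members, the family was close to the whole transcriptome. Ratios are log2((maturation + 1)/(expansion + 1)), and 2-fold means a log2 ratio of 1 or more in size. Ube2l6 and Ube2c were the 2 of 31 members at least 2-fold higher, against 3.13% of the 9263 expressed rows. None of the 31 was at least 2-fold lower, against 6.70% of expressed rows. The median log2 ratio was -0.14 over the members and -0.25 over all expressed rows, and 18 of the 31 exceeded -0.25. A log2 ratio within 0.5 of 0 was found for 21 of the 31 members (67.7%) and for 66.7% of all expressed rows. Ratios above 0 were found for 8 of 31 members (25.8%) and 25.9% of all expressed rows, and 18 of the 31 were above 0 once the all-row median was subtracted. The pseudocount draws low genes towards 0, and by the plain FPKM ratio 3 members were at or under 0.5, against 15.1% of all expressed rows. The counts were 2 higher and 0 lower under each of 4 other settings, with 35 members when low rows were kept and 20 at a minimum of 5 FPKM. The share of all rows counted as higher and lower was then 1.24% and 2.65% when low rows were kept, 5.31% and 7.92% at a minimum of 5 FPKM, 4.53% and 3.92% with the all-row median subtracted, and 3.57% and 5.32% when scaled without small RNA rows. With a pseudocount of 0.1 there were 2 higher (4.03% of all rows) and 3 lower (14.1%), and with a pseudocount of 5 there were 0 higher (1.79%) and 0 lower (1.60%). Keeping low rows could add no call at a pseudocount of 1, where a 2-fold call needs at least 1 FPKM. A minimum of 5 FPKM can only remove rows, so its count of 0 lower was fixed in advance. Ube2l6 passed the minimums of 1 and 5 FPKM by its maturing value alone, so the stricter minimum is no check on its call. Ube2d1 and Ube2w passed the minimum of 1 FPKM by their expansion value alone.

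**Figure D1:**
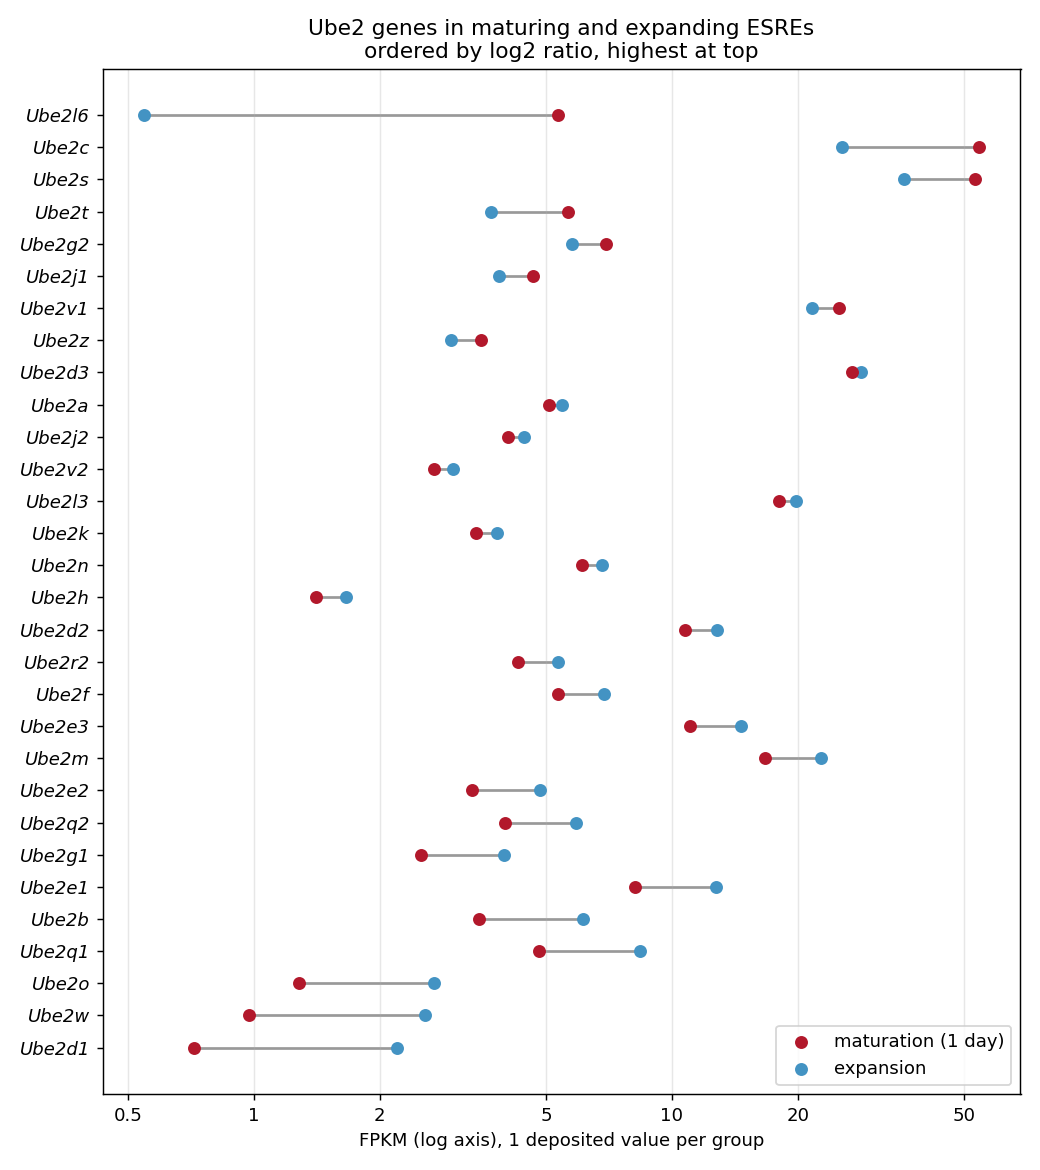
FPKM of 30 expressed Ube2 genes in maturing cells (red) and expanding cells (blue) on a log axis, 1 deposited value per group, ordered by log2 ratio. The gap between the points is widest for Ube2l6, at 5.33 FPKM in maturing cells and 0.546 FPKM in expanding cells, and the lowest rows are Ube2o, Ube2w and Ube2d1.

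FPKM is scaled by transcript length, and on that footing levels were set side by side between genes. The comparison is rough, above all for rows such as Ube2v1 that share much sequence with other genes. Members ranged between 0.720 and 54.2 FPKM in maturing cells and between 0.546 and 35.9 FPKM in expanding cells. The median member was at 5.07 FPKM in maturing cells and 5.76 FPKM in expanding cells, while the median of all expressed rows was 3.38 FPKM in maturing cells and 4.34 FPKM in expanding cells. Ube2c, Ube2s, Ube2d3 and Ube2v1 were the 4 most abundant rows of the maturing cells, whereas Ube2s, Ube2d3, Ube2c and Ube2m were the 4 most abundant of the expanding cells. The 35 rows summed to 325 FPKM in maturing cells and 308 FPKM in expanding cells, a ratio of 1.06. Within it, Ube2c and Ube2s together were at 107 FPKM in maturing cells and 61.4 FPKM in expanding cells (1.75-fold), while the other rows together were at 218 FPKM in maturing cells and 246 FPKM in expanding cells (0.885-fold). The mitotic pair held 33.0% of the pool in maturing cells and 19.9% in expanding cells.

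**Figure D2:**
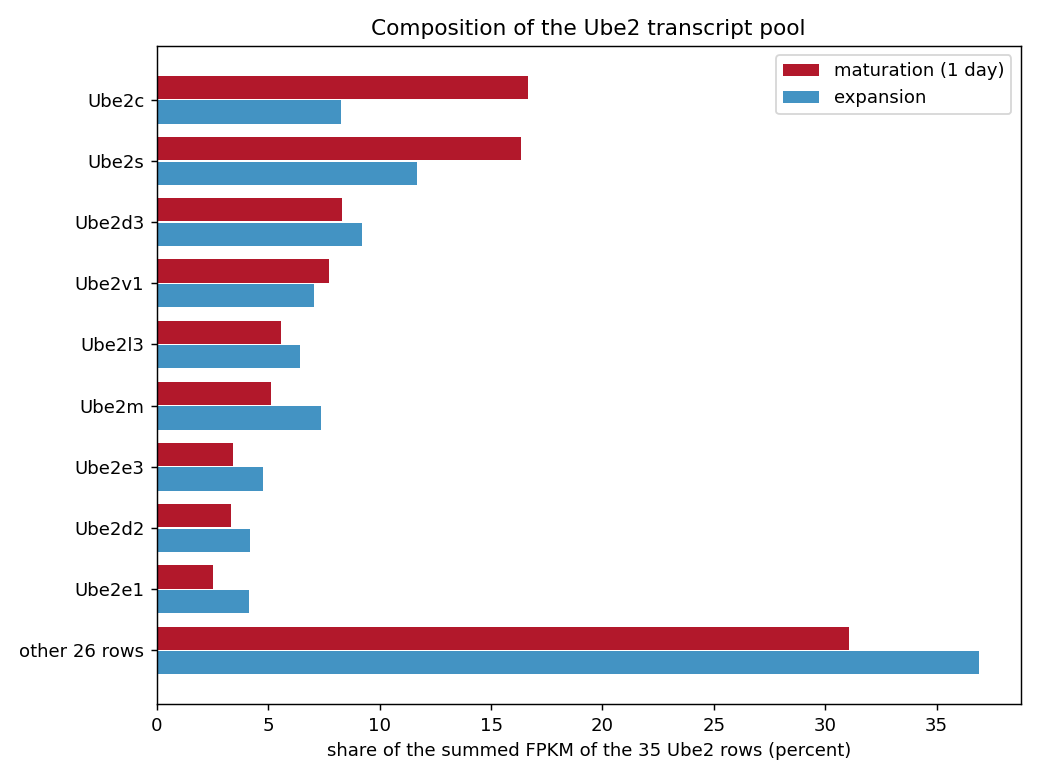
Share of the summed FPKM of the 35 Ube2 rows, in percent, for 9 abundant rows of the maturing cells and the other 26 rows together, with maturing cells in red above expanding cells in blue. Ube2c took 16.7% of the pool in maturing cells and 8.28% in expanding cells.

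Of the 3 E2s of cell division and DNA repair, Ube2c passed 2-fold, and Ube2s and Ube2t did not. All 3 had a log2 ratio above 0, as did 25.9% of all expressed rows. UBE2C starts ubiquitin chains on the substrates of the anaphase-promoting complex (APC/C), and UBE2S lengthens them. Ube2c (mm9 chromosome 2, 164595429 to 164598402) had a log2 ratio of 1.06, which was higher than in 97.1% of expressed rows, and 16.0% of its 50-base words also occur in transcripts annotated to Tnnc2 or other genes. Ube2s (chromosome 7, 4759616 to 4763942) was at 53.1 FPKM in maturing cells and 35.9 FPKM in expanding cells, a log2 ratio of 0.55. The Ube2c to Ube2s ratio was 1.02 in maturing cells and 0.710 in expanding cells, so that Ube2c was level with Ube2s after maturation and below it in expansion. UBE2T works with the Fanconi anaemia core complex to mark FANCD2 and FANCI at DNA crosslinks. Ube2t (chromosome 1, 136859154 to 136870714) was at 5.63 FPKM in maturing cells and 3.70 FPKM in expanding cells, a log2 ratio of 0.50. In maturing cells it ranked 13 among the 35 rows, against rank 24 in expanding cells.

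Partners of these E2s were mixed. The APC/C and its regulators had 16 expressed genes with a median log2 ratio of -0.09. Of these, 1 stood over 2-fold higher and 0 over 2-fold lower, against 3.13% and 6.70% of all expressed rows. The higher gene was Fbxo5, which encodes the APC/C inhibitor EMI1, at 14.95 FPKM in maturing cells and 6.24 FPKM in expanding cells. Cdc20, the mitotic activator, was at 12.8 FPKM in maturing cells and 9.43 FPKM in expanding cells, and Fzr1, the later activator CDH1, at 4.81 FPKM in maturing cells and 5.51 FPKM in expanding cells. Anapc5, a scaffold subunit, was at 26.7 FPKM in maturing cells and 16.7 FPKM in expanding cells. Anapc4 was at 2.12 FPKM in maturing cells and 3.62 FPKM in expanding cells. The RING subunit Anapc11, which binds UBE2C, was at 3.83 FPKM in maturing cells and 3.55 FPKM in expanding cells. Of 9 expressed Fanconi genes, 7 had a log2 ratio above 0, against 25.9% of all expressed rows. None passed 2-fold, the median was 0.16, and all 9 exceeded the all-row median. Some of the 9 were counted as expressed by their maturing value alone, among them Fancc, at 1.32 FPKM in maturing cells and 0.852 FPKM in expanding cells. Fancd2 was at 2.51 FPKM in maturing cells and 1.36 FPKM in expanding cells, Fanci at 2.02 FPKM in maturing cells and 1.23 FPKM in expanding cells, and Fancl, the ligase that binds UBE2T, at 2.59 FPKM in maturing cells and 2.16 FPKM in expanding cells.

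**Figure D3:**
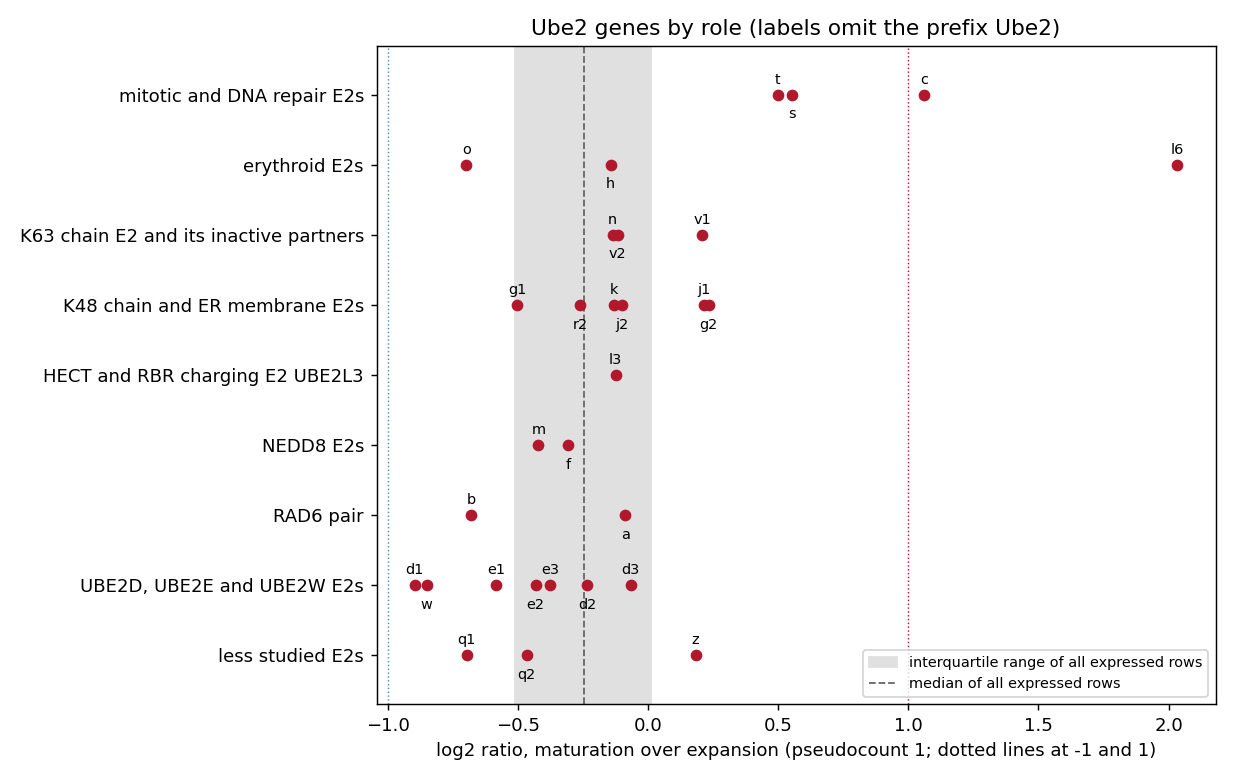
Log2 ratio of maturation over expansion for 30 expressed Ube2 genes, grouped by role, with the grey band for the interquartile range of all expressed rows and the dashed line for their median (-0.25). The 3 mitotic and DNA repair E2s lie to the right of the band, and the 3 E2s of red cell maturation are spread between -0.70 for Ube2o and 2.03 for Ube2l6.

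The 3 E2s known from red cell maturation differed in direction. UBE2L6 conjugates ISG15, an interferon-induced ubiquitin-like protein, and can carry ubiquitin as well. Ube2l6 (mm9 chromosome 2, 84638985 to 84650160) had a log2 ratio of 2.03. It ranked 15 in maturing cells but last of the 31 expressed members in expanding cells. Of its 50-base words 10.3% also occur in transcripts of other genes. Of the other parts of the ISG15 system all 4 listed genes are given. Isg15, Herc6 and Usp18 were under 1 FPKM in both groups and, at those low values, higher in maturing cells. Isg15 was at 0.756 FPKM in maturing cells and 0.340 FPKM in expanding cells, Herc6, the mouse ISG15 ligase (listed as Herc5), at 0.692 FPKM in maturing cells and 0.291 FPKM in expanding cells, and Usp18, which removes ISG15, at 0.0182 FPKM in maturing cells and 0.0128 FPKM in expanding cells. Uba7, its E1, was the 1 expressed gene of the 4 and stood lower, at 2.27 FPKM in maturing cells and 3.40 FPKM in expanding cells.

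Rows next to Ube2l6 on the chromosome were looked at after its value was seen. Smtnl1, 1172 bases beyond its end, was at 0.00245 FPKM in maturing cells and 0.00414 FPKM in expanding cells, and Serping1, 23398 bases before its start, was listed at 0 in maturing cells and at 0.00251 FPKM in expanding cells. Both are close to 0. Timm10, a mitochondrial import gene 17017 bases away, was at 7.35 FPKM in maturing cells and 6.33 FPKM in expanding cells, and Slc43a1, an amino acid transporter gene 29404 bases away, at 0.884 FPKM in maturing cells and 0.124 FPKM in expanding cells. For Ube2c, the next rows were Dnttip1, at 2.98 FPKM in maturing cells and 3.40 FPKM in expanding cells, and Tnnc2, at 0.0161 FPKM in maturing cells and 0.0245 FPKM in expanding cells. Neither Dnttip1 nor Tnnc2 stood higher in maturing cells. LOC100504707, 23994 bases before the start of Ube2c, did, at 0.0342 FPKM in maturing cells and 0.0153 FPKM in expanding cells, values close to 0.

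UBE2O is a large enzyme that acts as E2 and E3 at once and clears ribosomal and other surplus proteins in reticulocytes. Ube2o (mm9 chromosome 11, 116399067 to 116442761) was at 1.28 FPKM in maturing cells and 2.70 FPKM in expanding cells, 2.11-fold lower by plain ratio, with a log2 ratio of -0.70. UBE2H is the E2 of the CTLH ligase, which builds up in late erythroblasts. Ube2h (chromosome 6, 30161289 to 30254539) ranked 28 of 35 in maturing cells and 30 of 35 in expanding cells, with a log2 ratio of -0.14. Its level is uncertain, because 45.8% of the 50-base words of its annotated transcripts also occur in transcripts of other genes. Of the 11 CTLH genes, all expressed, none reached a log2 ratio of 1 in size and the median log2 ratio was -0.22. Ranbp10 was at 7.92 FPKM in maturing cells and 3.72 FPKM in expanding cells, 2.13-fold higher by plain ratio, with a log2 ratio of 0.92. Gid8 was at 14.4 FPKM in maturing cells and 8.03 FPKM in expanding cells, whereas Maea, which encodes a RING subunit, was at 5.48 FPKM in maturing cells and 8.70 FPKM in expanding cells. Ranbp9 was at 2.37 FPKM in maturing cells and 4.03 FPKM in expanding cells. The paralogues Ranbp10 and Ranbp9, which encode alternative scaffold subunits, thus differed in direction. Wdr26 was at 6.17 FPKM in maturing cells and 5.15 FPKM in expanding cells. Rmnd5a was at 2.14 FPKM in maturing cells and 3.03 FPKM in expanding cells.

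In the UBE2D, UBE2E and UBE2W set, generalist E2s that mostly serve RING ligases, 0 of 7 members were lower by a log2 ratio of 1 or more. All 7 had a log2 ratio below 0, the side on which most expressed rows lay (25.9% were above 0), with a median of -0.43, and 2 of 7 exceeded -0.25, the all-row median. Ube2d2 and Ube2d3 turned to the positive side once that median was subtracted. The summed level of all 7 members was 62.0 FPKM in maturing cells and 78.1 FPKM in expanding cells. Ube2d3, the most abundant of them, was at 27.0 FPKM in maturing cells and 28.3 FPKM in expanding cells. Ube2d2 was at 10.7 FPKM in maturing cells and 12.8 FPKM in expanding cells. Ube2d1 had the lowest log2 ratio of all expressed members (-0.90), at 0.720 FPKM in maturing cells and 2.20 FPKM in expanding cells. By plain ratio Ube2d1 was 3.06-fold lower and Ube2w 2.63-fold lower. The Ube2d1 level equalled 2.67% of Ube2d3 in maturing cells and 7.78% in expanding cells, so the scarcest of these 3 close relatives also had the largest fold. The row of Ube2w, whose product attaches ubiquitin to protein N-termini, was at 0.973 FPKM in maturing cells and 2.56 FPKM in expanding cells, a log2 ratio of -0.85. Ube2e1 was at 8.17 FPKM in maturing cells and 12.7 FPKM in expanding cells, and Ube2e2 at 3.32 FPKM in maturing cells and 4.83 FPKM in expanding cells. Ube2e3 was at 11.1 FPKM in maturing cells and 14.7 FPKM in expanding cells. In the table Ube2e1 shares its locus with Nkiras1, and 57.0% of its 50-base words occur in other genes' transcripts, so its value is uncertain.

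The E2s that build chains linked through lysine 63 or 48 of ubiquitin lay nearer 0. UBE2N makes lysine 63 chains together with UBE2V1 or UBE2V2, relatives that lack the catalytic cysteine. Ube2n was at 6.10 FPKM in maturing cells and 6.81 FPKM in expanding cells, and Ube2v1 at 25.2 FPKM in maturing cells and 21.7 FPKM in expanding cells. Ube2v2 was at 2.69 FPKM in maturing cells and 3.001 FPKM in expanding cells. The Ube2v1 row exceeded that of Ube2n 4.12-fold in maturing cells and 3.18-fold in expanding cells. Of its 50-base words 80.5% also occur in other genes' transcripts, mostly those of Gm20431, which makes its level uncertain. UBE2G2, UBE2J1 and UBE2J2 act in the removal of misfolded proteins from the endoplasmic reticulum, UBE2K and UBE2R2 make lysine 48 chains, and UBE2G1 works with cullin ligases. Ube2g2 was at 6.95 FPKM in maturing cells and 5.76 FPKM in expanding cells, whereas its relative Ube2g1 was at 2.51 FPKM in maturing cells and 3.97 FPKM in expanding cells. The Ube2g1 to Ube2g2 ratio was therefore 0.361 in maturing cells and 0.690 in expanding cells. Ube2g1 shares its locus with LOC100504005, at 0.486 FPKM in maturing cells and 1.36 FPKM in expanding cells, so the split of reads between them is uncertain. Ube2j1 was at 4.64 FPKM in maturing cells and 3.86 FPKM in expanding cells. Ube2j2 was at 4.06 FPKM in maturing cells and 4.42 FPKM in expanding cells, which put Ube2j1 above Ube2j2 in maturing cells and below it in expanding cells. Ube2k was at 3.39 FPKM in maturing cells and 3.82 FPKM in expanding cells. Ube2r2 was at 4.28 FPKM in maturing cells and 5.32 FPKM in expanding cells. Cdc34, the relative of Ube2r2 with a name of its own, was 7.09-fold more abundant than Ube2r2 in maturing cells and 5.52-fold in expanding cells, itself at 30.3 FPKM in maturing cells and 29.4 FPKM in expanding cells.

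**Figure D4:**
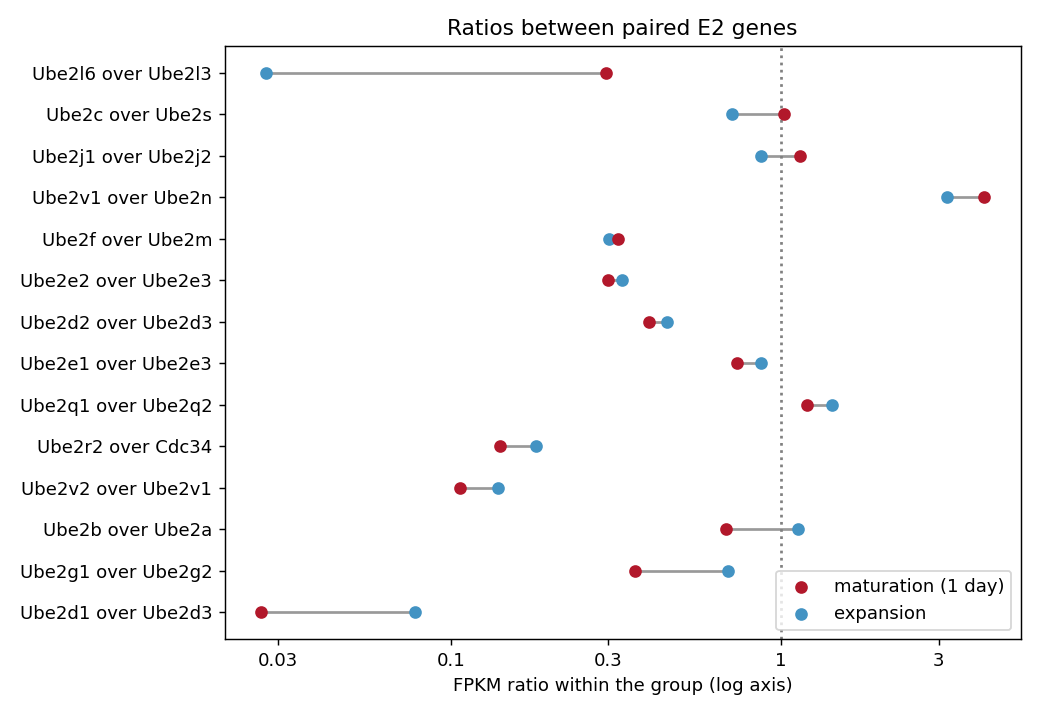
FPKM ratio between related or jointly acting E2 genes within maturing cells (red) and expanding cells (blue), on a log axis. Ube2l6 over Ube2l3 was 0.295 in maturing cells and 0.0276 in expanding cells, the widest gap among the 14 pairs, and Ube2d1 over Ube2d3 shows the widest gap in the other direction.

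UBE2A and UBE2B are the mammalian RAD6 enzymes, near-identical proteins that ubiquitinate PCNA and histone H2B. Ube2a was at 5.07 FPKM in maturing cells and 5.46 FPKM in expanding cells. Ube2b was at 3.45 FPKM in maturing cells and 6.12 FPKM in expanding cells, a log2 ratio of -0.68. The Ube2b to Ube2a ratio was 0.679 in maturing cells and 1.12 in expanding cells. None of the 50-base words of either gene occurs in another gene's annotated transcripts. UBE2L3, which passes ubiquitin to HECT and RBR ligases, was encoded by a row at 18.1 FPKM in maturing cells and 19.8 FPKM in expanding cells. Of its 50-base words 33.9% occur elsewhere too. Its relative Ube2l6 equalled 29.5% of that level in maturing cells and 2.76% in expanding cells.

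UBE2M and UBE2F are the NEDD8 E2s that activate cullin ligases. Ube2m was at 16.7 FPKM in maturing cells and 22.7 FPKM in expanding cells. Ube2f was at 5.35 FPKM in maturing cells and 6.86 FPKM in expanding cells. Ube2f stood at 0.320 of Ube2m in maturing cells and 0.302 in expanding cells, a proportion that hardly differed. Of 9 expressed NEDD8 genes none passed 2-fold and the median was -0.09, while the 16 expressed cullin and SCF genes had a median of -0.02 and none past 2-fold. Rbx1, the RING subunit of most cullin ligases, was at 11.3 FPKM in maturing cells and 8.85 FPKM in expanding cells, and Fbxw7, which encodes an F-box protein that targets cyclin E, at 1.62 FPKM in maturing cells and 0.858 FPKM in expanding cells. Skp2, the F-box protein for p27, was at 1.02 FPKM in maturing cells and 1.69 FPKM in expanding cells.

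The remaining expressed members are less studied. Ube2q1 was at 4.80 FPKM in maturing cells and 8.40 FPKM in expanding cells, a log2 ratio of -0.70. Ube2q2 was at 3.99 FPKM in maturing cells and 5.90 FPKM in expanding cells. Ube2z, whose product is charged by UBA6 and not by UBA1, was at 3.50 FPKM in maturing cells and 2.97 FPKM in expanding cells. The 4 rows under 1 FPKM were Ube2cbp at 0.332 FPKM in maturing cells and 0.491 FPKM in expanding cells, Ube2dnl at 0.292 FPKM in maturing cells and 0.313 FPKM in expanding cells, Ube2ql1 at 0.0955 FPKM in maturing cells and 0.0778 FPKM in expanding cells, and Ube2u, listed at 0 in maturing cells and at 0.00644 FPKM in expanding cells. Ube2cbp encodes a binding protein of UBE2C and not an E2.

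Upstream of the E2s, none of the 9 expressed E1 genes reached a log2 ratio of 1 in size. All 9 had a log2 ratio below 0, where most expressed rows lay, and the median was -0.37, with 2 of 9 above the all-row median. Uba1, the main ubiquitin E1, was at 18.9 FPKM in maturing cells and 24.7 FPKM in expanding cells. Uba6 was at 0.424 FPKM in maturing cells and 1.19 FPKM in expanding cells, 2.80-fold lower by plain ratio, with a log2 ratio of -0.62. The log2 ratio of Ube2z (0.18) lay on the other side of 0 from that of its E1 gene Uba6. That contrast is uncertain, as Uba6 was under 1 FPKM in maturing cells and neither value has a spread. The SUMO E1 genes are Sae1 and Uba2. Sae1 was at 12.8 FPKM in maturing cells and 18.3 FPKM in expanding cells. Uba2 was at 15.7 FPKM in maturing cells and 19.0 FPKM in expanding cells. For NEDD8, Uba3 was at 3.87 FPKM in maturing cells and 6.06 FPKM in expanding cells. Nae1 was at 3.88 FPKM in maturing cells and 3.93 FPKM in expanding cells. Ubb, a polyubiquitin gene, was at 625 FPKM in maturing cells and 938 FPKM in expanding cells, a log2 ratio of -0.58. Rps27a, which encodes ubiquitin fused to a ribosomal protein, was at 259 FPKM in maturing cells and 320 FPKM in expanding cells. Ubiquitin genes hold near-identical repeats, so the split of reads between them is uncertain.

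Of 16 expressed ligases and readers that act with UBE2N or the RAD6 pair, none passed 2-fold and the median was -0.13, with Rnf168, a ligase of the DNA break response, at 3.03 FPKM in maturing cells and 2.08 FPKM in expanding cells. Of 16 expressed HECT ligases none reached a log2 ratio of 1 in size, with a median of -0.11. Nedd4, a ligase of membrane proteins, came nearest (-0.95), at 9.80 FPKM in maturing cells and 19.8 FPKM in expanding cells. By plain ratio Nedd4 was 2.02-fold lower. The 4 genes listed for linear ubiquitin had a median of -0.46, with none past 2-fold and 1 of 4 above the all-row median. The lowest ratio was that of Rbck1, a subunit of the linear ubiquitin ligase, at 10.7 FPKM in maturing cells and 15.9 FPKM in expanding cells. Of 16 expressed genes of endoplasmic reticulum degradation 1 stood over 2-fold lower, against 6.70% of all expressed rows, and the median was -0.19. The lower gene was Herpud1, a stress-induced adaptor of the degradation complex, at 2.58 FPKM in maturing cells and 6.99 FPKM in expanding cells. Among 5 expressed E2-fold genes outside the Ube2 names the median was -0.21, with Birc6, a giant E2 and E3 hybrid, at 1.46 FPKM in maturing cells and 1.99 FPKM in expanding cells. All 5 differed less than 2-fold.

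**Figure D5:**
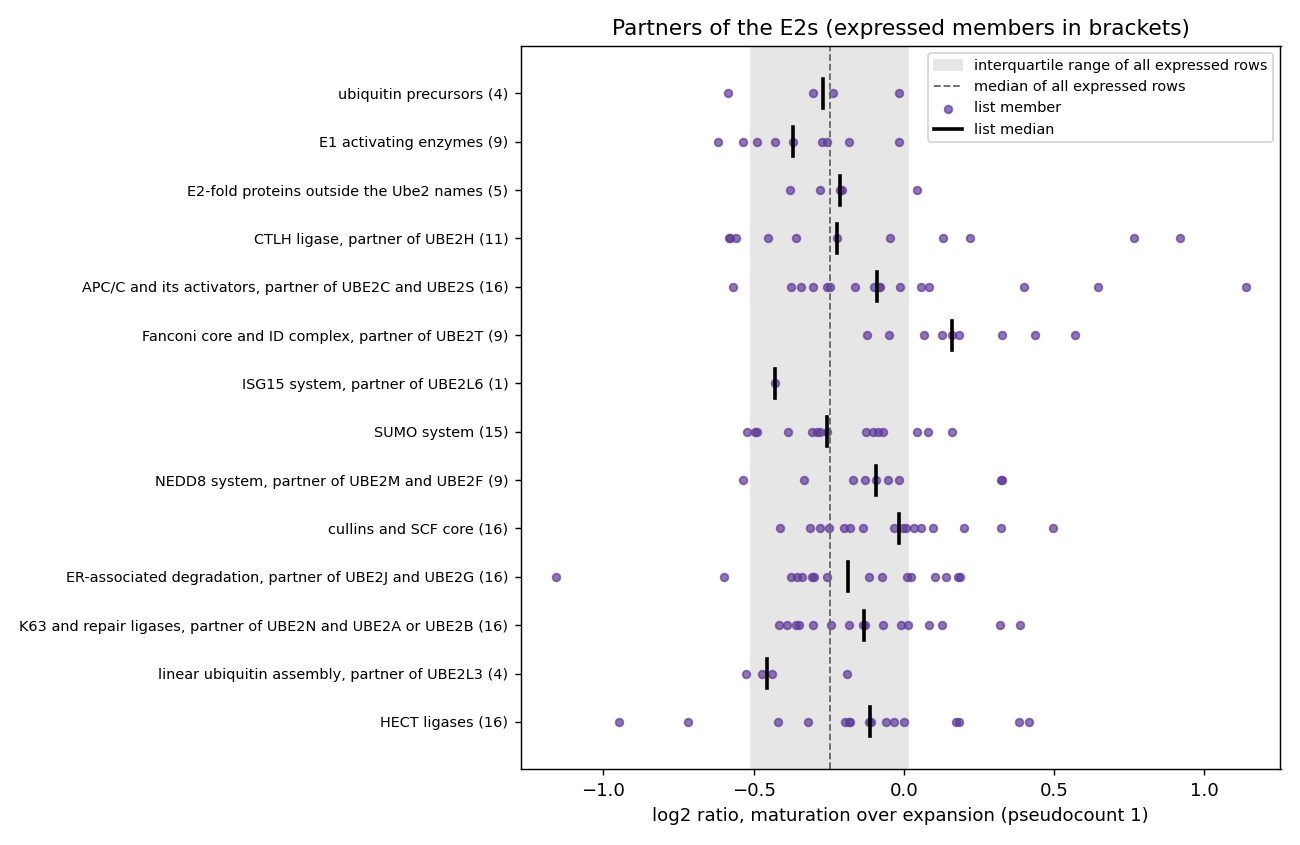
Log2 ratio of maturation over expansion for expressed members of 14 partner lists, with list medians as black bars, the interquartile range of all expressed rows in grey and their median dashed. Fbxo5 (1.14) and Herpud1 (-1.16) are the outermost points, and the Fanconi list has the highest median (0.16).

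The erythroblast label fits the marker levels, as all 10 erythroid markers reached 1 FPKM in maturing cells and 8 did in expanding cells. Several markers of other blood cells moved with the same comparison. The 4 mast cell markers summed to 0.790 FPKM in maturing cells and 15.7 FPKM in expanding cells. Of them, 3 reached 1 FPKM in expanding cells, while Cpa3 was listed at 0 in maturing cells and at 0.107 FPKM in expanding cells. The 4 megakaryocyte markers summed to 2.28 FPKM in maturing cells and 22.0 FPKM in expanding cells. Again 3 reached 1 FPKM in expanding cells, while Pf4 was listed at 0 in maturing cells and at 0.0333 FPKM in expanding cells. Cpa3 and Pf4 were thus near 0 in both groups. The macrophage markers summed to 0.595 FPKM in maturing cells and 1.34 FPKM in expanding cells, and no granulocyte or lymphocyte marker reached 1 FPKM in either group. Whether mast cells or megakaryocytes were present was not tested, nor was any part of such cells in the lower E2 values of maturing cells.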

How the data were processed

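The deposited values are FPKM per the file headers, with 1 value for a gene in each group. The submitters' processing notes list Cuffdiff 2.0.2 and mm9. Not given in the sources used here: aligner, annotation, filters and how duplicates were combined. Depth and counting precision are unknown, as the table holds FPKM alone. Table starts were counted from 0, since the spans of 190 of 190 microRNA rows matched RefSeq lengths that way, and are printed counted from 1.

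From these values log2((maturation + 1)/(expansion + 1)) was computed for 9263 rows that reached 1 FPKM in either group (Python 3.11.15, pandas 2.3.3). No test was possible. The 14 partner lists held 162 genes, of which 157 matched by symbol and 5 by RefSeq synonym. Ube2 rows may be named (1 expressed row, counted in all totals, and some partner genes are not reported here), with up to 4 members per list by size of log2 ratio and a preset list of direct partners. Members and lists were chosen with earlier results of these data known. Promoters, printed in place of proteins, are from RefSeq (GRCm38.p6) and shared 50-base words from GENCODE M21 transcripts, whose models may differ from the authors' annotation. Alternatives were pseudocounts of 0.1 and 5, no filter, a minimum of 5 FPKM, centring, and scaling without small RNA rows.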

Additional observations from a re-analysis of the deposited data

How the results depend on the processing

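Ube2l6 and Ube2c were the 2 members at least 2-fold higher under all alternatives but 1. With a pseudocount of 5 the count was 0, their log2 ratios being 0.90 and 0.96 (1.79% of all rows were then higher). Keeping low rows could add no call, and a minimum of 5 FPKM could only remove rows. With a pseudocount of 0.1 the number at least 2-fold lower was 3 and not 0 (14.1% of all rows), namely Ube2d1 (-1.49), Ube2w (-1.31) and Ube2o (-1.02), which lie at low FPKM where the pseudocount weighs most. The members' median log2 ratio became 0.11 after subtracting the all-row median and -0.034 when values were scaled without small RNA rows, a class that held 25.5% of summed FPKM in maturing cells and 17.6% in expanding cells; that scaling put 12 of 31 members above 0. The number of members above the median of all rows was 9 of 35 with no filter, where the median of all rows itself is near 0 (-0.01), and 11 of 20 at a minimum of 5 FPKM. Of 124 values of single members under alternatives, 119 stayed on the same side of the 2-fold line. None of the called ones changed sign, but a pseudocount cannot change a sign, so this is little check. Members that were not called did change sign, with 8 of 31 above 0 in the main setting and 18 after subtracting the all-row median. No paired analysis was possible because each group has 1 value per gene. Depth is unknown, so members with a low value in a group, Ube2l6, Ube2d1, Ube2w, Ube2o and Ube2h, carry the least certain ratios. The log2 ratio of Ube2l6 was 3.07 with a pseudocount of 0.1, 2.03 with 1 and 0.90 with 5. Its row was kept at the minimum of 5 FPKM by the maturing value alone.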
